A study of Mus musculus with 3 samples.

Results

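The DNA between Ptch1 and its upstream neighbour Ercc6l2 holds no annotated gene, and the contacts that the Ptch1 promoter made along it were compared in 3 tissues of the mouse embryo. The stretch begins at the base after the most upstream annotated start of Ptch1 and ends at the base before Ercc6l2, at chr13:63674475-63916547 on the mm9 build, a length of 242 kb. Its members are the positions of the deposited profiles that fall inside it, 242 of the 1001 positions listed for each library. They were chosen by coordinate alone and no measured value was used. The members lie 1 kb apart, from 5.845 to 246.845 kb upstream of the labelled viewpoint at 63669139. There are 5 nearer than 10 kb and 237 at 10 kb or more.

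The profiles came from 4C-seq, a form of chromosome conformation capture read by sequencing, on E11.5 embryos, at mid-gestation, with 44 to 45 somites. One library was made from the anterior part and 1 from the posterior part of forelimbs pooled from 20 embryos, and 1 from telencephalic vesicles, the forebrain tissue that served as the control. All 3 tissues were dissociated, fixed with 2% formaldehyde for 10 min, cut with NlaIII and then with DpnII, and amplified from the same fragment at the Ptch1 promoter. The number of embryos behind the telencephalon library, the genotype and the strain were not given in the sources used here. Both limb libraries are pools of embryos, and all 3 are mixtures of the cell types of their tissue. A contact signal gives no marker genes against which the tissue labels could be checked. With 1 library per tissue there is no replicate, no SD and no test, so every difference below has no replicate check.

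Ptch1 encodes the cell-surface receptor for Hedgehog ligands, and Hedgehog signalling in turn switches the gene on, so its RNA is widely used to read where the pathway is active. In the limb bud Sonic hedgehog is made at the posterior margin, and Ptch1 is transcribed most strongly in the posterior mesenchyme. The pathway acts on its target genes through the GLI transcription factors, and the DNA around such genes can hold enhancers far from the promoter. In 4C-seq, chromatin is cut and ligated in fixed nuclei and the ligation products of 1 chosen fragment, the viewpoint, are sequenced, so a high signal means that a piece of DNA was often near the viewpoint and says nothing by itself about regulation. Ercc6l2, at the far end of the stretch, encodes a helicase-like protein linked to DNA repair.

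The sequences that the results turn on are printed first, all from the NCBIM37 reference, the assembly behind mm9, on the plus strand unless stated. In the viewpoint and summit sequences, capitals mark cut sites, CATG for NlaIII and GATC for DpnII. They also mark exact matches to GACCACCCA, the consensus bound by GLI proteins. The first is the upstream edge of the viewpoint fragment (chr13:63669098-63669157), shown because each contact is read as a ligation to this fragment. The next are the 240 bases at the centre of the 5 kb window with the highest signal in 4 raised regions: at 40.8 kb (chr13:63709864-63710103), at 56.8 kb (chr13:63725864-63726103), at 73.8 kb (chr13:63742864-63743103) and at 151.8 kb (chr13:63820864-63821103). They show what lies there, and a window of 5 kb read every 1 kb does not place a contact within them.
viewpoint, upstream edge: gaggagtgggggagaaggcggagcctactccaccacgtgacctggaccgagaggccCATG
summit at 40.8 kb: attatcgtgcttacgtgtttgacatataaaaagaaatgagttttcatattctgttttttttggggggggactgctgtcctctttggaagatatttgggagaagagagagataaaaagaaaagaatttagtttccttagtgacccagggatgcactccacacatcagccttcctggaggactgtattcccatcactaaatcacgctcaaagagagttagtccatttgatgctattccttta
summit at 56.8 kb: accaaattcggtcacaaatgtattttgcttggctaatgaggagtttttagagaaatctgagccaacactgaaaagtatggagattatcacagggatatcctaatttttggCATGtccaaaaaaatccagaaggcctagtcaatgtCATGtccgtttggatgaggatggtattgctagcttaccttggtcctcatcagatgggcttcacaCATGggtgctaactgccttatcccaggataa
summit at 73.8 kb: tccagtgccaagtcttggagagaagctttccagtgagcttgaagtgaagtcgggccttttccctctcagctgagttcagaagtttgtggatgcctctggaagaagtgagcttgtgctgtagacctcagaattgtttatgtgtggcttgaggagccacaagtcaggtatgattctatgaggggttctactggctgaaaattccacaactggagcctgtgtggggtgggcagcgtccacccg
summit at 151.8 kb: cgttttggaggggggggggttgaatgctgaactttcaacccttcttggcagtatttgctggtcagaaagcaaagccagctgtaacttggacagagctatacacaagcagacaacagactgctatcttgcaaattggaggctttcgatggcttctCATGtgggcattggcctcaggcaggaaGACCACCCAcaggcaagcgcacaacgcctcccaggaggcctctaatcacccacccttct

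The GLI consensus GACCACCCA of 9 bases was searched on both strands and found 3 times in the stretch at 10 kb or more from the viewpoint. The matches are shown with 11 bases on either side, each in the direction in which it reads as the consensus, because 1 of them lies in the summit sequence at 151.8 kb. They lie at chr13:63686854-63686862 (minus strand), chr13:63718529-63718537 (minus) and chr13:63821045-63821053 (plus), which is 17.719, 49.394 and 151.91 kb from the viewpoint. Here only the motif is in capitals, and the NlaIII site directly after the match at 49.394 kb is left in lower case.
match at 17.719 kb: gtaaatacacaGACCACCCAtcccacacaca
match at 49.394 kb: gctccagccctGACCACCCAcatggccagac
match at 151.91 kb: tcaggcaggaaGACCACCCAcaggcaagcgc

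A match to the consensus is a description of the letters and not a binding site. At least 1 match fell in 18 of the 242 member windows of 5 kb (7.44%), against 84 of all 1001 windows (8.39%), so the stretch was not richer in this motif than the whole span. NlaIII and DpnII sites, which read the same on both strands, were in all 1001 windows. The stretch holds 1290 NlaIII sites and 621 DpnII sites, has a GC share of 43.2% and contains no unknown base. Of its 1289 whole NlaIII fragments, with a median length of 130 bp, 884 (68.6%) have no DpnII site. The 5 kb windows held a median of 50 NlaIII fragment ends that could be mapped uniquely, their first 30 bases being found once in the reference (range 17 to 81), and 240 of the 242 held at least 20.

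The signal below is the one normalised by the authors in sliding windows, given here for 5 kb as a running median and as an upper quantile of the window, read from the order of the columns. Sequencing depth could not be read from the files, which give no counts, and no interval was computed. Over the 780 positions that lie 10 to 400 kb from the viewpoint on either side, the library's own median was 0.0193 in telencephalon, 0.0264 in the anterior and 0.0259 in the posterior limb for the running median, and 0.0245, 0.0276 and 0.0269 for the upper quantile. The telencephalon level was the lowest in both, so ratios to it are partly ratios of these medians (1.36 for anterior limb and 1.34 for posterior limb in the running median, 1.12 and 1.10 in the upper quantile). The 780 positions include the 237 members at 10 kb or more, so each share of all 780 below is partly the members' own.

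Along most of the stretch the running median did not vary. In telencephalon 168 of the 242 members had exactly the level 0.0193 and 53 had 0.0245, together 91.3%. In anterior limb 178 members were at 0.0264 and 49 at 0.0276 (93.8%), and in posterior limb 155 were at 0.0259 and 76 at 0.0269 (95.5%). At 209 members (86.4%) all 3 libraries stood at 1 of their own repeated levels. Whether such a level was measured or filled in during processing was not given in the sources used here. Any fold against a library at its level is therefore relative to that level. The few members away from them had fewer uniquely mappable ends, with medians of 37, 32 and 30 in telencephalon, anterior and posterior limb against 51, 52 and 52 at the most frequent level. The contacts below therefore show mainly in the upper quantile, where a minority of the fragments in a window stood out.

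**Figure D1:**
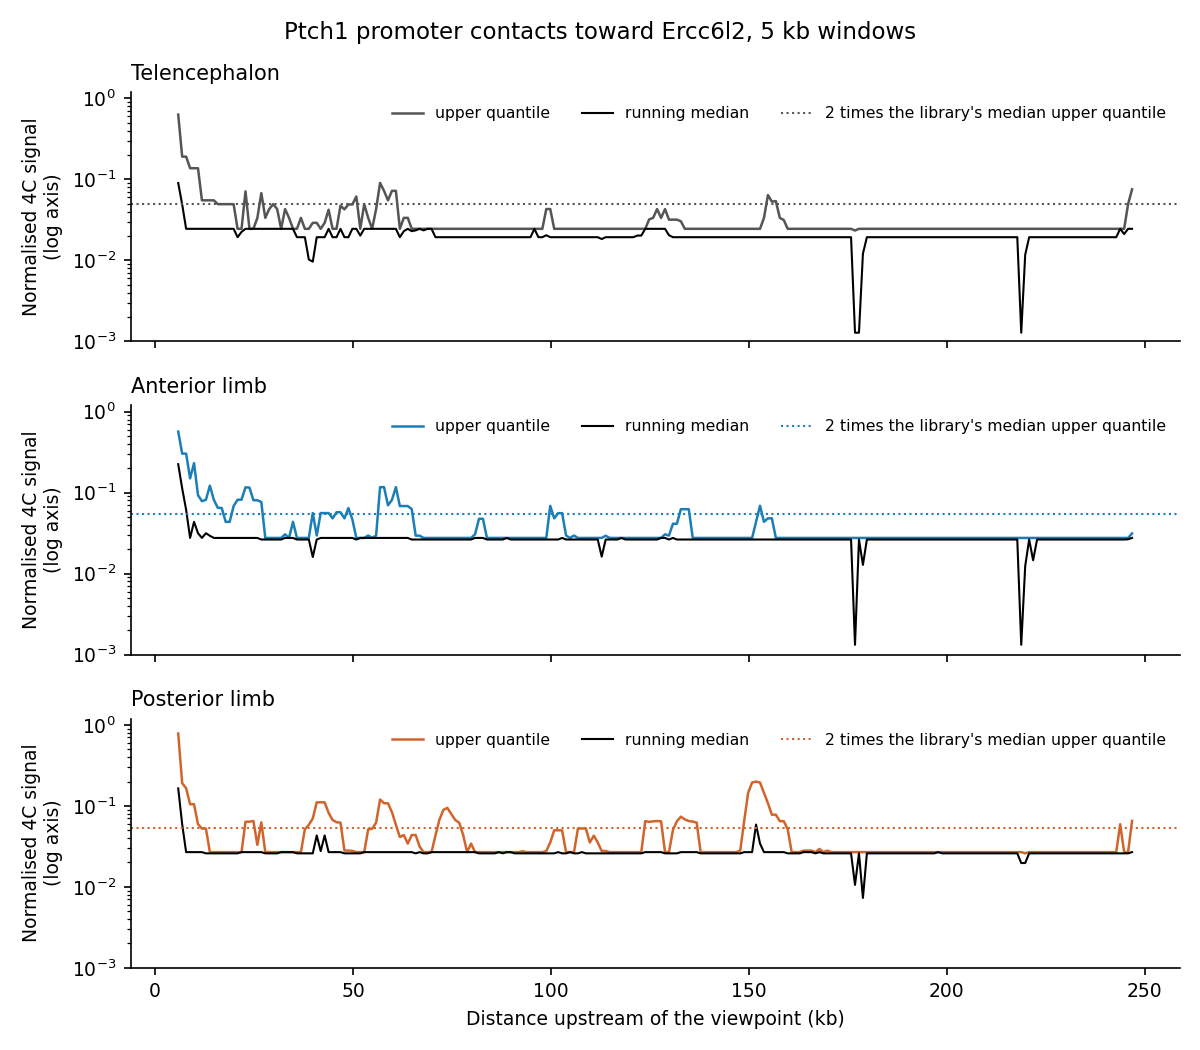
Normalised 4C signal (log axis) against distance upstream of the viewpoint in kb, in 5 kb windows, 1 panel per tissue and 1 library each; the coloured line is the upper quantile, the black line the running median and the dotted line 2 times the library's median upper quantile. Past 10 kb the running median keeps to its repeated levels at most positions, with dips to 0.00128 in telencephalon and 0.00132 in anterior limb and a high of 0.0589 in posterior limb, while the posterior limb upper quantile rises to 0.200 at 151.8 kb, where telencephalon is at 0.0245.

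Between 10 and 50 kb the promoter's contacts were weaker toward Ercc6l2 than along the Ptch1 gene body in all 3 tissues. The comparison side runs from the viewpoint to lower coordinates, through Ptch1 and then on to Fancc, and is called the gene-body side. The mean running median was 0.0223 in telencephalon, 0.0272 in the anterior and 0.0272 in the posterior limb upstream, against 0.0517, 0.0438 and 0.0771 at the same distances on the gene-body side. The upstream mean was thus 0.432, 0.622 and 0.353 of the gene-body mean. In the upper quantile the gap was wider, at 0.272, 0.407 and 0.227, from upstream means of 0.0417, 0.0575 and 0.0458. Because both sides belong to the same library, these ratios do not depend on how libraries were scaled.

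Past 50 kb the ratio of the sides depended on the tissue and the bin, and between 150 and 200 kb the upstream side was the higher one, most clearly in posterior limb. From 50 to 100 kb the upstream upper quantile was 0.539 of the gene-body side in telencephalon, 1.04 in the anterior and 0.747 in the posterior limb. From 100 to 150 kb it was 0.586, 0.652 and 1.02, so that anterior limb fell back below its gene-body side. From 150 to 200 kb it was 1.10, 1.08 and 1.68, because the posterior limb mean upstream was 0.0452 while the gene-body side stood at 0.0269, that library's median. The telencephalon and anterior limb means upstream were 0.0269 and 0.0299 there. In that bin the posterior limb excess lay in a single run of positions around the 151.8 kb summit, described below. The same bin gave 0.955, 0.971 and 1.01 in the running median, where this excess was not seen.

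The mean upper quantile of posterior limb stayed near 1 level up to 200 kb, while the means of the other libraries went down. A minority of positions carried these means, since the posterior limb bin medians were 0.0279, 0.0276, 0.0277 and 0.0269 from 10 to 200 kb, at or near the library median of 0.0269. At 150 to 200 kb the only posterior limb run at 2 times that median or more was the one from 148.8 to 158.8 kb. It surrounds the 151.8 kb summit described below, so the values of this bin are not separate from that summit. At 10 to 50 kb the posterior limb median was the lowest of the 3, against 0.0424 in telencephalon and 0.0559 in anterior limb. The posterior limb means were 0.0458 at 10 to 50 kb, 0.0439 at 50 to 100 kb, 0.0426 at 100 to 150 kb and 0.0452 at 150 to 200 kb, and fell to 0.0283 at 200 to 250 kb. Telencephalon went from 0.0417 through 0.0322, 0.0263 and 0.0269 to 0.0261. Anterior limb began highest, at 0.0575, and went through 0.0398, 0.0320 and 0.0299 to 0.0277. The ratio of posterior limb to telencephalon was therefore 1.10, 1.36, 1.62, 1.68 and 1.08 from the nearest bin to the farthest, and 1.00, 1.25, 1.48, 1.53 and 0.990 after division of every profile by the library's own median. The ratio of posterior to anterior limb was 0.797 in the nearest of these bins and 1.51 at 150 to 200 kb. These upper quantile bin means were read in 5 kb windows only.

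**Figure D2:**
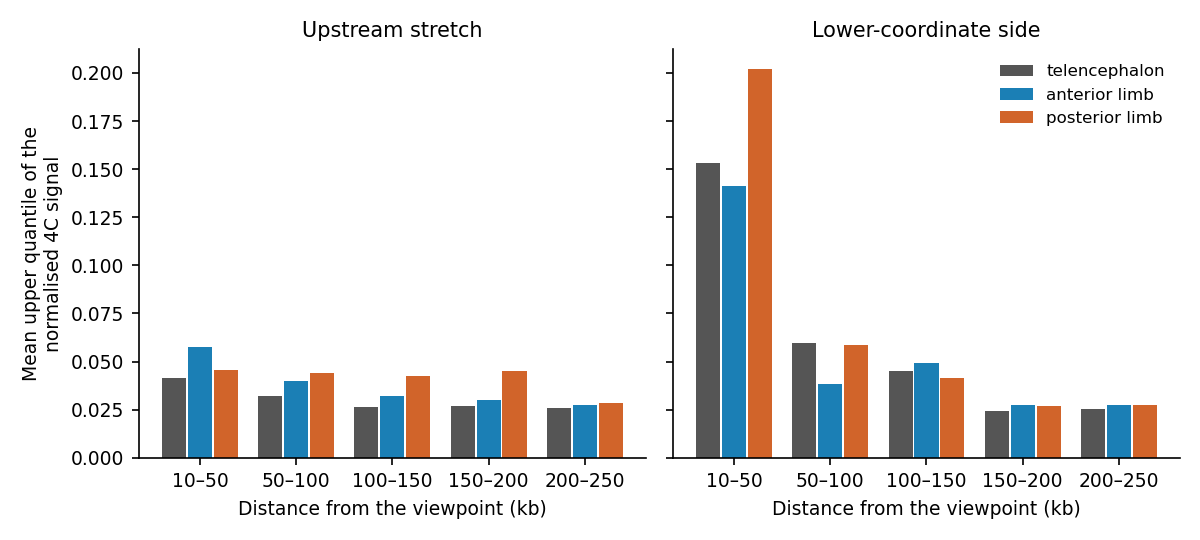
Mean upper quantile of the normalised 4C signal (linear axis from 0) by distance bin in kb, upstream of the viewpoint (left) and on the lower-coordinate, gene-body side (right); bars are single libraries, with no error. At 10 to 50 kb the gene-body bars reach 0.153, 0.141 and 0.202 against 0.0417, 0.0575 and 0.0458 upstream, and at 150 to 200 kb the tallest bar is the upstream posterior limb mean, 0.0452.

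A position was called raised where its signal was at least 2 times the library's own median. In the running median 0 of the 237 members at 10 kb or more were raised in telencephalon, 0 in the anterior and 1 in the posterior limb, where the shares of all 780 positions were 2.95%, 1.28% and 3.72%. The matching positions of the gene-body side held 23, 10 and 28. In the upper quantile 25 members were raised in telencephalon (10.5%, against 14.1% of all positions), 38 in anterior limb (16.03%, against 13.8%) and 50 in posterior limb (21.1%, against 16.8%). The telencephalon share lay below its background, the anterior limb share near it and the posterior limb share somewhat above it. Over the other 543 positions, without the members, the shares were 15.7% in telencephalon, 12.9% in the anterior and 14.9% in the posterior limb. At the same distances on the gene-body side 80 (33.8%), 67 (28.3%) and 70 (29.5%) positions were raised, more than upstream in every library. Neighbouring 5 kb windows overlap, so these counts are of positions and not of separate contacts.

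The raised positions of the 3 libraries were spread differently along the stretch. Between 10 and 50 kb there were 13 of 40 in telencephalon, 22 in the anterior and 14 in the posterior limb. Between 100 and 150 kb there were 0, 5 and 13 of 50, and between 150 and 200 kb 3, 1 and 9. The only posterior limb run between 150 and 200 kb was the one around the 151.8 kb summit. The telencephalon run at 154.8 to 156.8 kb lay inside it, so these 150 to 200 kb counts describe 1 place. In the last bin, 200 to 250 kb, the counts were 2, 0 and 2 of 47. Beyond 150 kb the gene-body side had 0 raised positions in all 3 libraries.

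Few of these positions were raised in all 3 libraries, while more were shared by 2 of them. Of the 237, 8 (3.38%) were raised in all 3 libraries, where the share of all 780 positions was 7.56%. There were 12 in both limb libraries alone (5.06%, against 2.56% of all), 26 in posterior limb alone (10.97%, against 4.36%), 11 in anterior limb alone (4.64%, against 2.44%) and 6 in telencephalon alone (2.53%, against 2.95%). A further 7 were raised in telencephalon and anterior limb, 4 in telencephalon and posterior limb, and 163 (68.8%, against 76.5%) in none. On the gene-body side at the same distances 51 positions were raised in all 3 libraries and 2 in posterior limb alone. Joined into runs of at least 2 kb with a summit at 10 kb or more, the raised positions formed 4 stretches in telencephalon, 5 in the anterior and 7 in the posterior limb. Of the 7 posterior stretches, 5 lay within 5 kb of an anterior one and 3 within 5 kb of a telencephalon one. Of the 5 anterior stretches, 4 lay within 5 kb of a posterior one and 2 of a telencephalon one. Of the 4 telencephalon stretches, 3 lay within 5 kb of a posterior one and 2 of an anterior one.

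**Figure D3:**
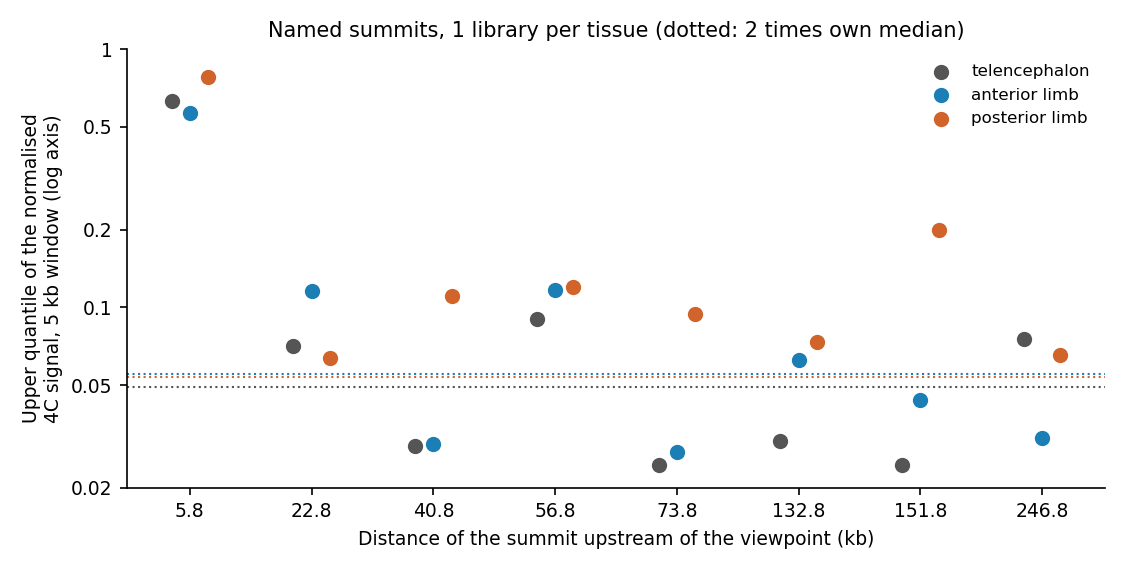
Upper quantile of the normalised 4C signal in the 5 kb window (log axis) at the summits of the 8 named stretches, by distance upstream of the viewpoint in kb; each point is 1 library, and the dotted lines are 2 times each library's own median. Posterior limb stands alone above the lines at 40.8, 73.8 and 151.8 kb, and all 3 libraries are above them at 5.8, 22.8 and 56.8 kb.

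The highest contact of the stretch away from the promoter was in posterior limb, 151.8 kb upstream. At position 63820984 the running median was 0.0193 in telencephalon, 0.0264 in the anterior and 0.0589 in the posterior limb. The upper quantile there was 0.0245, 0.0436 and 0.200. Telencephalon was at its baseline in both measures, anterior limb was at its baseline in the running median only, and posterior limb was 7.44 times its own median upper quantile. This was the only member at 10 kb or more that was raised in the running median in any library.

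The raised run around it in posterior limb spanned 11 positions, 63817984 to 63827984, and its mean upper quantile was 0.0356 in telencephalon, 0.0380 in the anterior and 0.122 in the posterior limb. The 2 sides of this run differed. From 63817984 to 63822984 the means were 0.0260, 0.0398 and 0.157, a posterior limb to telencephalon ratio of 6.05. From 154.8 kb to 156.8 kb telencephalon was raised too, with 0.0640 at 63823984, where anterior limb had 0.0481 and posterior limb 0.108. Anterior limb had a lone raised position at 63821984, with 0.0688. The windows of the run held 36 to 48 unique fragment ends, fewer than the member median of 50. At the summit 52.4% of the ends lay on fragments without a DpnII site, against a median of 67.4% for members at the most frequent posterior limb level. The part of these features in the signal was not tested.

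The ratios at this summit were also read at the other deposited window widths. The summit was chosen for its posterior limb signal at 5 kb, and telencephalon stood at its baseline of 0.0245 at most widths. Windows of different width share the same centre, and the wider ones contain the fragments of the narrower ones. Counts of widths, here and at the other summits, are therefore not independent checks of a difference. They describe how it changed with the window. The ratio of posterior limb to telencephalon in the upper quantile was 8.15 at 5 kb, 7.93 at 2 kb, 3.91 at 10 kb and 2.60 at 20 kb. It was 2 or more at 35 of the 48 deposited widths, the widest being 44 kb, and its lowest value was 1.76. Against anterior limb the ratio was 4.58 at 5 kb, 3.39 at 2 kb and 2.31 at 20 kb, and it was 2 or more at 25 widths. In the running median the ratio to telencephalon was 3.05 at 5 kb and 2 or more at 4 of the 48 widths, none above 5 kb.

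**Figure D4:**
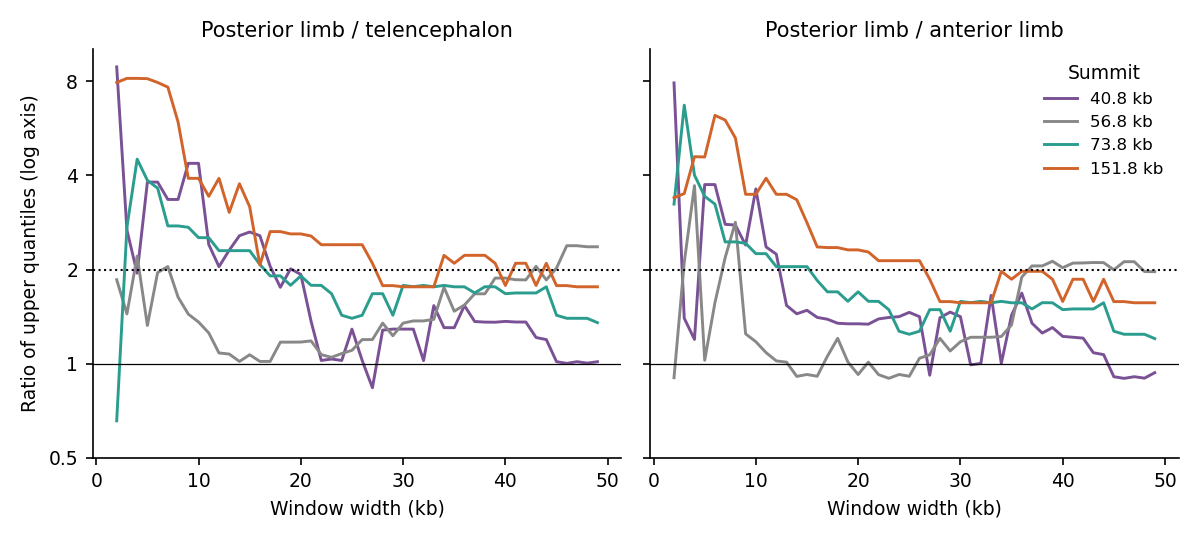
Ratio of the upper quantile of posterior limb to telencephalon (left) and to anterior limb (right), on a log axis, against window width in kb, at 4 summits named by their distance upstream; the dotted line is a ratio of 2 and the solid line a ratio of 1. The 151.8 kb line stays at or above 1.76 over telencephalon at all widths, the 56.8 kb line lies between 1.02 and 2.38 there, and the 73.8 kb line starts at 0.657.

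A second posterior limb contact lay 40.8 kb upstream, at position 63709984. The upper quantile was 0.0291 in telencephalon, 0.0296 in the anterior and 0.111 in the posterior limb, and the running median was 0.0193, 0.0264 and 0.0432. Posterior limb was the highest in both, although its running median, 1.66 times its own median, was not raised. The other libraries were at or just above their baselines at this position, but anterior limb was raised over 63708984 to 63717984, a run that overlaps this contact. In the run from 63707984 to 63711984 the mean upper quantile was 0.0272, 0.0450 and 0.0920. The mean running median was 0.0156, 0.0248 and 0.0332, a posterior limb to telencephalon ratio of 2.13, to which low telencephalon values of 0.0102 and 0.00963 at the first 2 positions contributed. This run was named because posterior limb was at least 2 times telencephalon in its running median. That difference was therefore set by the choice of the run and is not a separate result.

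At this summit the posterior limb upper quantile was 3.81 times that of telencephalon and 3.74 times that of anterior limb. The ratio to telencephalon was 8.89 in 2 kb windows, 4.37 at 10 kb and 1.93 at 20 kb, and 2 or more at 16 of the 48 widths. The ratio to anterior limb was 2 or more at 9 widths and 1.196 at 4 kb, where anterior limb had 0.0687 and posterior limb 0.0821. Its windows held 26 to 37 unique ends, fewer than the median member. At this position 37.5% of the ends lay on fragments without a DpnII site, against a median of 67.4% for members at the most frequent posterior limb level. The part of these features in the signal was not tested.

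A further posterior limb contact, 73.8 kb upstream at position 63742984, depended on the window. At 5 kb the upper quantile was 0.0245 in telencephalon, 0.0276 in the anterior and 0.0945 in the posterior limb, and both other libraries stood at their baselines over the whole run of 6 positions, 63740984 to 63745984. The ratio was 3.86 to telencephalon and 3.43 to anterior limb, each 2 or more at 14 of the 48 widths. In 2 kb windows the values were 0.136, 0.0276 and 0.0893, so that telencephalon was the highest and the ratio of posterior limb to it was 0.657. The running median was at a repeated level in all 3 libraries.

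In 5 kb windows all 3 tissues shared a contact at nearly the same height 56.8 kb upstream, at position 63725984. The upper quantile was 0.0904 in telencephalon, 0.117 in the anterior and 0.120 in the posterior limb, which is 3.69, 4.24 and 4.46 times the respective library median. All 3 libraries were raised, and the ratios of the limb libraries to telencephalon were 1.29 and 1.33. Other widths were less even: at 4 kb the values were 0.0495, 0.0295 and 0.109, at 2 kb telencephalon was not raised (0.0334), and posterior limb was 2 or more times anterior limb at 14 of the 48 widths. Over the 6 positions from 63724984 to 63729984 the means were 0.0675, 0.0886 and 0.0899. The running median was 0.0245, 0.0276 and 0.0269, a repeated level in each library, so this contact too rested on a minority of fragments. Anterior limb stayed raised farther out, to 63733984, and at 63730984 to 63733984 it was 2.31 times telencephalon, with means of 0.0669 and 0.0290.

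Nearest to the gene, every member under 10 kb was raised in the upper quantile in all 3 libraries. At position 63674984, beside the Ptch1 start, the upper quantile was 0.631 in telencephalon, 0.568 in the anterior and 0.784 in the posterior limb, and the running median was 0.0901, 0.225 and 0.165. Anterior limb was the lowest of the 3 in the first measure and the highest in the second. Over the 3 positions from 63674984 to 63676984 the mean running median was 0.0546, 0.133 and 0.0836, so that anterior limb was 2.44 times telencephalon. At the first position that ratio was 2.49 as deposited and 1.83 after division of every profile by the library's own median, and it was 2 or more at 6 of the 48 widths. The 5 kb window there reaches into Ptch1, and at this distance the signal of the viewpoint's immediate surroundings cannot be told apart from a contact.

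Past 10 kb, raised positions were densest at 10 to 50 kb in every library, and anterior limb had the most. It had 22 of 40 there, against 13 in telencephalon and 14 in posterior limb. At position 63691984, 22.8 kb upstream, the upper quantile was 0.0710 in telencephalon, 0.116 in the anterior and 0.0638 in the posterior limb. Over the 8 positions from 63688984 to 63695984 the means were 0.0399, 0.0877 and 0.0461, a ratio of anterior limb to telencephalon of 2.20. All 3 libraries were raised at the summit, and anterior limb was the highest. In 2 kb windows at the same place telencephalon was at its baseline of 0.0245, anterior limb at 0.139 and posterior limb at 0.103.

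Closer in, from 63682984 to 63685984 (13.8 to 16.8 kb), anterior limb had a mean upper quantile of 0.0833 and posterior limb stood at its baseline of 0.0269, a ratio of 3.10. Telencephalon had 0.0523 there. As deposited, in the 5 kb upper quantile, this was the only place where telencephalon exceeded posterior limb 2-fold over a run of at least 2 kb. The run held 2 neighbouring positions, 63682984 and 63683984, with means of 0.0551 and 0.0269. After division of every profile by the library's own median, telencephalon exceeded posterior limb 2-fold at 12 members past 10 kb instead of 4.

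The remaining named stretches were lower. At 132.8 kb (63801984) the upper quantile was 0.0304 in telencephalon, 0.0624 in the anterior and 0.0736 in the posterior limb, so that the anterior and the posterior limb both stood 2-fold or more above telencephalon, with ratios of 2.05 and 2.42. After division by the own median these were 1.82 and 2.21, so that only posterior limb kept the 2-fold difference. In 2 kb windows only anterior limb stood out there, with 0.0624 against 0.0245 and 0.0269. At 246.8 kb (63915984), whose window reaches into Ercc6l2, the values were 0.0753, 0.0313 and 0.0652, and anterior limb was the low one. In 2 kb windows the order changed to 0.0495, 0.0305 and 0.170, with posterior limb highest.

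Posterior limb exceeded telencephalon 2-fold, while at or above its own median, at 39 of the 237 members in the upper quantile (16.5%, against 8.46% of all 780 positions). The opposite held at 4 (1.69%, against a background of 1.79%). On the gene-body side at the same distances the posterior limb excess was found at 14. The 39 positions include 8 runs of at least 2 kb, among them 63769984 to 63771984 (means of 0.0245 in telencephalon and 0.0499 in posterior limb) and 63775984 to 63777984 (0.0245 and 0.0526). After division of every profile by the library's own median the counts were 28 and 12, against 6.28% and 3.85% of all positions, so the direction stayed and the imbalance was smaller. The running median gave 6 (2.53%, against a background of 2.82%) and 0 (background 0.641%), and 3 and 0 after the division. The 6 include 63707984, 63708984 and 63846984, where telencephalon was below its repeated levels, so part of this count reflects low telencephalon values.

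Anterior limb exceeded telencephalon at 18 members in the upper quantile (7.59%, background 4.87%) and was below it at 2 (0.844%, background 3.59%), where the gene-body side had 17 and 23. In the running median the counts were 2 (0.844%, background 1.28%) and 0 (background 1.03%), with 3 more of the former under 10 kb. Neither of these 2 positions, 63707984 and 63846984, was raised in anterior limb, and both reflect low telencephalon values of 0.0102 and 0.00128.

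Posterior limb exceeded anterior limb at 28 members in the upper quantile (background 7.82%) and was below it at 9 (background 2.18%), where the gene-body side had 24 and 8. These are different parts of 1 organ and give a scale for differences between libraries that are not those of limb against brain. In the running median the counts were 1 (0.422%, background 2.05%) and 0 (background 0%), and the 1 position was the summit at 151.8 kb. The longest run ran from 63817984 to 63827984, with means of 0.0380 in anterior limb and 0.122 in posterior limb. Another, from 63792984 to 63796984 (123.8 to 127.8 kb), had anterior limb at its baseline of 0.0276, posterior limb at 0.0645 and telencephalon at 0.0333.

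The lowest signal of the stretch fell in windows with fewer mappable ends than the median member. At 63845984, 176.8 kb upstream, the running median was 0.00128, 0.00132 and 0.0106 in telencephalon, anterior limb and posterior limb, from 33 unique ends. At 63846984, the running median was 0.00128 in telencephalon, 0.0264 in the anterior and 0.0259 in the posterior limb, from 19. Anterior and posterior limb were back at their baselines there and telencephalon was not. With 17 unique ends, the fewest of any member, the next position, 63847984, gave 0.0121, 0.0128 and 0.00730. At 63887984, 218.8 kb upstream, it was 0.00128, 0.00132 and 0.0197, from 23 ends. Posterior limb kept the highest value at 63887984 and had the lowest at 63847984. The upper quantile stood at each library's baseline at the last 3 of these positions, and the part of mappability in these dips was not tested.

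The GLI matches were set beside the signal at the nearest member. At the match 17.719 kb upstream the upper quantile was 0.0494 in telencephalon, 0.0436 in the anterior and 0.0269 in the posterior limb, and at 49.394 kb it was 0.0490, 0.0466 and 0.0278. Posterior limb was thus the lowest library at both, at or just above its baseline. At 151.91 kb the values were those of the posterior limb summit, 0.0245, 0.0436 and 0.200. The centre of the match minus the nearest member position was -126, -451 and 65 bp at the 3 matches in turn. Members lie 1 kb apart and the windows are 5 kb wide, so these offsets do not place a contact at a match. Among members at 10 kb or more, a window with a match was raised in telencephalon at 6 of 25 raised positions against 9 of 212 others, in anterior limb at 5 of 38 against 10 of 199, and in posterior limb at 5 of 50 against 10 of 187. All of these rest on 3 matches seen through overlapping windows.

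Raised and other windows differed little in base composition. The median GC share of raised against other members was 43.5% and 43.5% in telencephalon, 44.0% and 43.4% in anterior limb, and 45.2% and 43.1% in posterior limb. In the same order, the median share of ends on fragments without a DpnII site was 67.4% against 68.4%, 67.2% against 68.75%, and 65.2% against 69.6%. Raised windows held somewhat fewer unique ends, with medians of 47 against 51, 45 against 52, and 44.5 against 52. An upper quantile over fewer ends is more easily moved by single fragments, and the part of these features in the counts was not tested.

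Across the 237 members the log2 upper quantile profiles correlated with a Pearson r of 0.599 between telencephalon and anterior limb, 0.308 between telencephalon and posterior limb, and 0.424 between the limb libraries. The Spearman rho values were 0.571, 0.359 and 0.470. In 20 kb windows r was 0.951, 0.555 and 0.472, so telencephalon and anterior limb were the most alike pair at both widths. These are descriptions over overlapping windows that share the same fragments and the same mappability, and they are not tests.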

How the data were processed

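The 3 4C-seq profiles were analysed, 1 library per tissue. The authors deposited, per library, a normalised 4C signal along chromosome 13 (mm9, per the submitters' processing notes) at 48 window widths from 2 to 49 kb, with 3 quantities each. The columns carry no names: widths were read from the empty rows at either end, and running median, upper and lower quantile from their order, with 0 violations and 0 negative values. Aligner, read filters, normalisation factor, quantile levels and read totals were not given in the sources used here, so depth and counting precision are unknown.

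The stretch was cut at the GENCODE M1 ends of Ptch1 (chr13:63610261-63674474, minus strand, ENSMUSG00000021466.5) and Ercc6l2 (chr13:63916548-64001610, plus strand, ENSMUSG00000021470.10, listed under an older symbol and matched through RefSeq synonyms) on NCBIM37. A position was raised where it reached 2 times its library's own median over 10 to 400 kb. A contrast needed a ratio of 2 or more with the higher library at or above its own median. Runs of at least 2 kb were formed, those under 2 kb apart were joined, and runs of different libraries no more than 5 kb apart were taken as shared. The main measure was the 5 kb running median, and the upper quantile was an alternative to it. Stretches called in the running median were raised runs, or runs in which 1 library was at least 2 times another, as at 40.8 kb. Up to 6 such stretches, and up to 6 further ones raised in the upper quantile, were named in order of the highest signal over the library median. Positions named beside these were chosen after their values were seen. Alternatives were 2, 10 and 20 kb windows, folds of 1.5 and 3, division by the own median, at least 20 unique ends, and windows wholly inside the stretch. The members and rules were chosen with earlier results of these data known. Sequence within 10 kb of the viewpoint, other than the viewpoint's edge, is not reported here. Run calling was tested on simulated data with planted runs. Python 3.11.15, numpy 2.4.6, scipy 1.17.1 and matplotlib 3.10.9 were used.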

Additional observations from a re-analysis of the deposited data

How the results depend on the processing

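No paired analysis was possible because there was a single library per tissue, and no replicate could be left out. Values refer to the 237 positions at 10 kb or more, and a value counts as moved past 1.5 times. Of the alternative values for the whole stretch, 120 stayed within that and 42 moved in the running median, and 40 stayed and 29 moved in the upper quantile. The direction of the limb to telencephalon mean ratio, 1.30 for anterior and 1.31 for posterior limb, turned to 0.953 and 0.974 after division by the own median. The upper quantile in place of the running median raised the mean to 0.0302 in telencephalon and 0.0411 in posterior limb, the raised positions from 0, 0 and 1 to 25, 38 and 50 (telencephalon, anterior limb, posterior limb), and the raised stretches, counting the part beyond 10 kb of one centred nearer, from 0 to 5, 6 and 7.

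In the running median, raised positions became 1, 2 and 7 in 2 kb windows, and in posterior limb 0 in 10 and 20 kb windows, 3 at 1.5 times and 0 at 3 times. Posterior limb had 1 raised stretch in 2 kb windows and 1 at 1.5 times. Anterior limb over telencephalon (2 positions) became 6 in 2 kb, 0 in 10 kb and 0 in 20 kb windows, 18 in the upper quantile, and 1 each with 20 unique ends, own median and 3 times. Posterior limb over telencephalon (6) became 15, 0 and 0 in those windows, 39 in the upper quantile, 3 with own median and 2 at 3 times. Posterior over anterior limb (1) became 11, 0 and 0, then 28, 6 at 1.5 times and 0 at 3 times. Telencephalon over anterior limb (0) became 3 in 2 kb windows and 2 in the upper quantile, telencephalon over posterior limb (0) became 3 and 4, and anterior over posterior limb (0) became 2 and 9. The cause was not tested.

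In the upper quantile, alternatives were added after seeing the data, as were the 48 widths at the summits. These alternatives covered raised positions and contrasts only. Upper quantile bin means, ratios of the sides and tissue ratios of means were read at 5 kb alone. Raised positions in telencephalon (25) became 38 at 1.5 times and 3 at 3 times, in anterior limb (38) 22 in 20 kb windows and 7 at 3 times, and in posterior limb (50) 16 at 3 times. Anterior limb over telencephalon (18) became 10 in 10 kb and 0 in 20 kb windows, 30 at 1.5 times and 4 at 3 times. Posterior limb over telencephalon (39) became 11 at 3 times. Posterior over anterior limb (28) became 43 at 1.5 times and 7 at 3 times. Telencephalon over anterior limb (2) became 6 in 2 kb, 0 in 10 kb and 0 in 20 kb windows, 1 inside the stretch, 6 with own median, 10 at 1.5 times and 0 at 3 times. Telencephalon over posterior limb (4) became 11, 2 and 1 in those windows, 12 with own median, 20 at 1.5 times and 0 at 3 times. Anterior over posterior limb (9) became 19 in 2 kb and 17 in 10 kb windows, 25 at 1.5 times and 4 at 3 times. The cause was not tested. Depth is unknown, so no limit of detection could be set.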
